A study of Mus musculus with 9 samples.

Results

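Transcripts of 9 genes of glycogen synthesis and breakdown were measured in hindlimb skeletal muscle of SMA and wild type mice. The 9 were chosen by symbol from the 32594 genes of the deposited count table: the synthase genes Gys1 and Gys2, the branching enzyme gene Gbe1, the phosphorylase genes Pygm, Pygb and Pygl, the phosphorylase kinase genes Phka1 and Phkg1, and Ppp1r3c, a targeting subunit of protein phosphatase 1 (PP1). All 9 were in the table, and all 9 passed the filter on low counts. The list was drawn up with the strong fall of Gys2 in these libraries already seen, so differences of the 9 genes between SMA and wild type are given as a description, with standard errors and without p-values.

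The SMA group held 4 libraries of SMN delta 7 mice, a model of spinal muscular atrophy, and the wild type group held 5 libraries. Both groups are on the FVB/N background, and the labels give neither age, sex, litter nor alleles. In its standard form the SMN delta 7 mouse lacks mouse Smn1 and carries human SMN transgenes, and whether the wild type mice carried any of them is not given. Nothing in the labels says that each library came from its own animal, so the errors and p-values measure the spread between libraries, which may be technical in part.

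Libraries held 30746646 to 35087722 gene counts in SMA and 24917665 to 34094645 in wild type. Smn1 was at 1.40 to 2.72 CPM (the usual per-library unit of counts, divided by the scaled library total) in the SMA libraries and at 11.1 to 13.8 CPM in the wild type libraries, and fell by 2.66 ± 0.17 on the log2 scale (SE; BH-adjusted p 2.88e-07, edgeR quasi-likelihood test, where BH is the Benjamini-Hochberg adjustment over all genes tested). The defining skeletal muscle genes Acta1, Ckm, Ttn, Des, Mb and Tnnt3 summed to 43100 to 52000 CPM in SMA and 71000 to 103000 CPM in wild type. Of these 6, 5 were called lower in SMA by that test, where 27.2% of all genes tested were called lower. TMM factors (trimmed mean of M values) set the scale. Scaling to total counts alone shifted the typical gene, with a median log2 fold change of 0.24 against 0.0060, so each change is relative to the TMM scale. Transcripts of Y-linked genes were found in 1 SMA library and 4 wild type libraries, so sex, read from them, differed between the groups and was tried as a covariate. Wild type 5 was the highest wild type library for 8 of the 9 genes, with a median deviation of 0.50 from its group on the log2 scale.

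Glycogen is the branched store of glucose that skeletal muscle draws on during contraction and the liver draws on to feed the blood. Glycogen synthase adds glucose units from UDP-glucose to a primer made by glycogenin, and the branching enzyme makes the side chains. Glycogen phosphorylase releases glucose 1-phosphate again after it has been switched on by phosphorylase kinase, a complex of alpha, beta, gamma and calmodulin subunits that responds to calcium and to cyclic AMP. PP1, held on the glycogen particle by targeting subunits, reverses those phosphorylations and favours storage. Several of these enzymes exist in forms encoded by separate genes: Gys1 and Pygm are the main forms of muscle, Gys2 is the form of liver that is also made in fat, Pygl is the liver phosphorylase and Pygb the brain phosphorylase.

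The forms are similar enough that shared reads had to be considered. Across GENCODE M21 protein-coding transcripts, 0 of the 75-base windows, the length of 1 read, were shared between Gys1 and Gys2, among Pygm, Pygb and Pygl, between Phka1 and Phka2, or between Phkg1 and Phkg2. The longest identical stretch of the synthases was 29 coding bases, at chr7:45443585-45443613 on the plus strand in Gys1 and at chr6:142451555-142451583 on the minus strand in Gys2 (mm10). It is shown because it is the limit of what a Gys1 read can share exactly with the much rarer Gys2.
Gys1 and Gys2, shared coding run: aatttcaacgtggaaaccctgaagggcca
Pygm and Pygb share a longer run of 62 coding bases, at chr19:6388746-6388807 and chr2:150814995-150815056, both on the plus strand. The capitals mark the 29 bases that Pygl holds as well, at chr12:70201930-70201958 on the minus strand.
Pygm and Pygb, shared coding run: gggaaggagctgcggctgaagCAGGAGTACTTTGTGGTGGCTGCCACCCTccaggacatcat
Exact windows of 1 read therefore set these genes apart, although how the authors' counting treated reads with mismatches is not given in the sources used here.

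Of the 9 genes, 5 passed a threshold of 0.05 on the adjusted p of edgeR's quasi-likelihood test and all of these 5 were lower in SMA, while 0 were higher. Among all 15873 genes tested 54.9% passed, 27.2% as lower and 27.7% as higher, and the list was chosen with this contrast in view, so nothing is read from the count. The same 5 genes, Gys2, Phka1, Ppp1r3c, Phkg1 and Pygm, were those in which every SMA library lay below every wild type library, a pattern shown by 21.7% of all genes tested. For 0 of the 9 every SMA library lay above every wild type library, against 22.6% of all genes, and 44.2% of all genes showed either pattern. The median log2 fold change of the 9 genes was -0.66, beside 0.0060 for all genes. The same 5 genes were called lower in every alternative run, DESeq2, limma-voom and the fit with sex as a covariate included. Scaling to total counts added Gys1 and Gbe1 as higher in SMA.

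**Figure D1:**
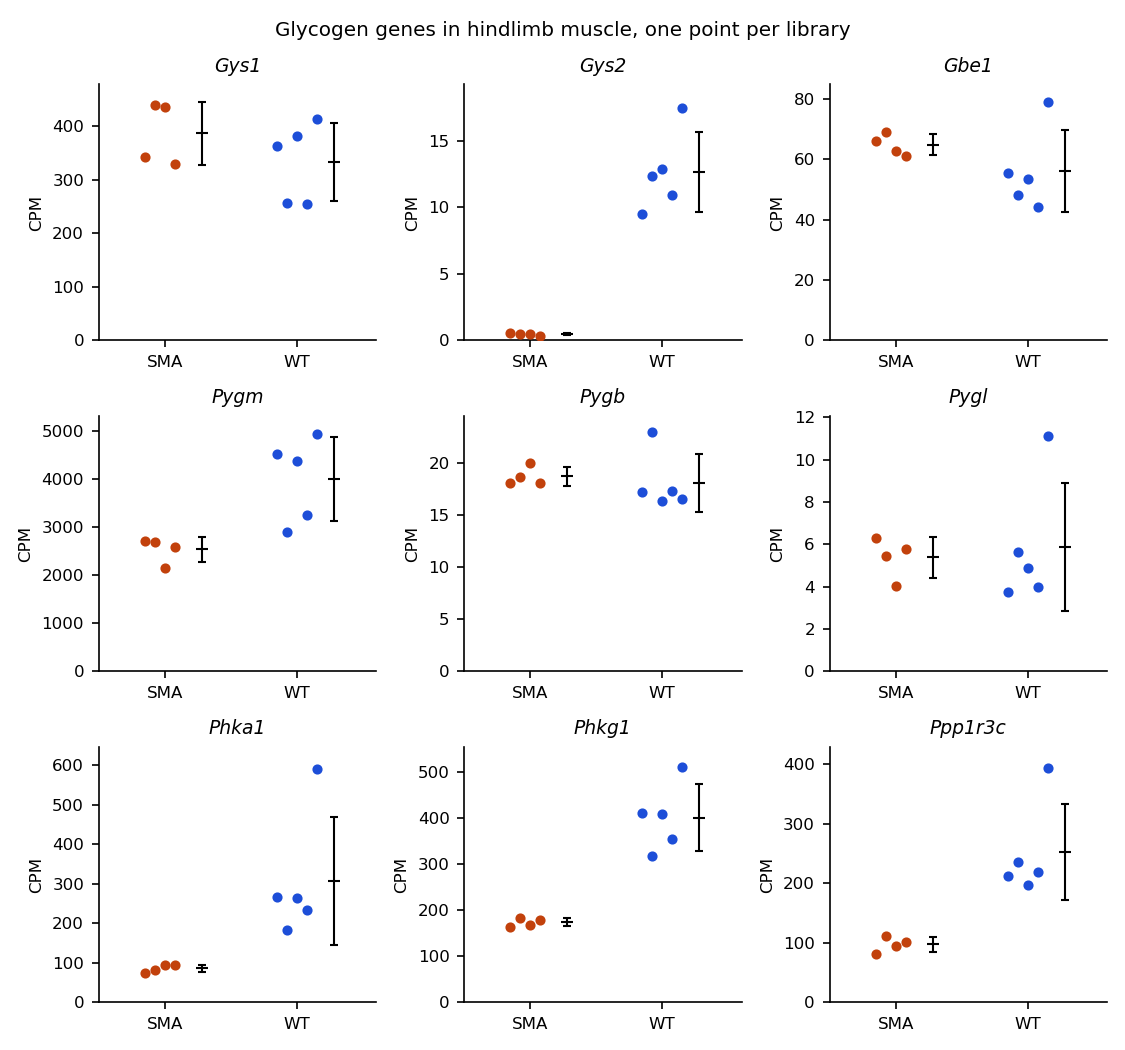
Level of each of the 9 glycogen genes in CPM (vertical axes, each from 0), with 1 point per library for SMA (left, n = 4) and wild type (right, n = 5); the black mark and bar give the mean and SD. Gys2, Pygm, Phka1, Phkg1 and Ppp1r3c do not overlap between the groups, while Gys1, Gbe1, Pygb and Pygl do.

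Of the synthase genes, Gys2 was lower in SMA and Gys1 did not pass. Gys1, the muscle synthase (chromosome 7, 45434844 to 45456619, plus strand, mm10), had 343, 439.9, 436 and 329.8 CPM in SMA libraries 1 to 4 and 363, 256, 382, 256 and 413 CPM in wild type libraries 1 to 5. SMA 2 and SMA 3 lay above every wild type library, and SMA 1 and SMA 4 lay inside the wild type range. The log2 fold change of Gys1 was 0.21 ± 0.16 (SE) and did not pass. With scaling to total counts it was 0.47 and passed.

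Gys2, the synthase of liver and fat (chromosome 6, 142422613 to 142473109, minus strand), was the member with the largest fold change. It had 20, 17, 18 and 13 counts in the SMA libraries and 216, 383, 338, 312 and 492 counts in the wild type libraries. On the scaled level these were 0.573, 0.453, 0.503 and 0.365 CPM in SMA, against 9.50, 12.4, 12.9, 10.9 and 17.4 CPM in wild type. The lowest wild type library was thus far above the highest SMA library, and the SMA libraries lay close together. The log2 fold change was -4.73 ± 0.22 (SE), a 26.5-fold lower level, and only 9 of the 15873 genes tested had a lower value. Leaving out each library in turn moved it between -4.83 and -4.58. Counts of 13 to 20 leave the SMA level of Gys2 with wide counting error in any 1 library. The samples are pieces of tissue, in which fewer cells of a type and less RNA per cell cannot be told apart.

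Within the synthase pair, Gys2 made up 0.124% ± 0.0290 of the counts in SMA (SD, n = 4) and 3.71% ± 0.805 in wild type (SD, n = 5). Per exon length, which is needed to compare levels of different genes, the share was 0.171% ± 0.0401 in SMA and 5.06% ± 1.08 in wild type. Gys1 was therefore the main synthase transcript of both groups. A share within a library needs no scaling between libraries.

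Gbe1, the branching enzyme (chromosome 16, 70313949 to 70569716, plus strand), had 66.0, 69.1, 62.9 and 61.3 CPM in SMA and 55.4, 48.4, 53.4, 44.4 and 79.0 CPM in wild type. Every SMA library was above wild type libraries 1 to 4 and below wild type 5. Its log2 fold change of 0.21 ± 0.14 did not pass, but without wild type 5 it was 0.36 ± 0.083 and passed as higher in SMA. Per exon length the ratio of Gbe1 to Gys1 within a library was 0.146 ± 0.0198 in SMA (SD, n = 4) and 0.146 ± 0.0193 in wild type (SD, n = 5), a pair of genes set beside each other after their values were seen.

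Pygm, the muscle phosphorylase whose loss in people causes McArdle disease (chromosome 19, 6384399 to 6398459, plus strand), was the most abundant of the 9 genes in both groups. It had 2718, 2693, 2151 and 2600.3 CPM in SMA and 4538, 2909, 4378, 3267 and 4939 CPM in wild type. All SMA libraries lay below all wild type libraries, but SMA 1, at 2718 CPM, was close to wild type 2, at 2909 CPM. The log2 fold change was -0.66 ± 0.16, a 1.58-fold lower level, and leaving out each library in turn moved it between -0.76 and -0.57. Set beside the muscle synthase within a library and per exon length, Pygm was 10.1, 7.83, 6.31 and 10.1 times Gys1 in SMA and 16.0, 14.5, 14.7, 16.4 and 15.3 times Gys1 in wild type. This ratio, chosen after the values were seen, needs no scaling and did not overlap between the groups.

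The other phosphorylases were low and overlapped between the groups. Pygb, the brain form (chromosome 2, 150786735 to 150831758, plus strand), had 18.0, 18.7, 20.0 and 18.1 CPM in SMA and 17.2, 23.0, 16.3, 17.3 and 16.5 CPM in wild type. Wild type 2 was the 1 high library, and the log2 fold change was 0.048 ± 0.11. Pygl, the liver form (chromosome 12, 70190811 to 70231488, minus strand), had 6.30, 5.43, 4.03 and 5.78 CPM in SMA and 3.74, 5.65, 4.88, 3.98 and 11.1 CPM in wild type, where wild type 5 stood apart. Its log2 fold change of -0.13 ± 0.29 turned to 0.23 without wild type 5 and to 0.13 with scaling to total counts, and did not pass in any of these. Pygm held 99.3% ± 0.0763 of the phosphorylase counts per exon length in SMA (SD, n = 4) and 99.5% ± 0.158 in wild type (SD, n = 5). The muscle form thus remained nearly the whole of the phosphorylase transcript, and wild type 2, at 99.3%, lay among the SMA libraries.

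In phosphorylase kinase the muscle subunits were lower in SMA. Phka1, the muscle alpha subunit, which restrains the enzyme until it is phosphorylated (chromosome X, 102513975 to 102644246, minus strand), had 75.0, 82.9, 93.6 and 93.6 CPM in SMA and 266, 183, 264, 235 and 591 CPM in wild type. The SMA libraries were all below the lowest wild type library, and wild type 5 stood far above the other wild type libraries. The log2 fold change was -1.84 ± 0.29, a 3.57-fold lower level, and it was -1.46 ± 0.13 without wild type 5. Phkg1, the muscle catalytic gamma subunit (chromosome 5, 129863421 to 129898549, minus strand), had 164, 183, 169 and 179 CPM in SMA and 412, 319, 408, 356 and 512 CPM in wild type. The groups were far apart for Phkg1, with a log2 fold change of -1.21 ± 0.13, a 2.31-fold lower level.

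Phka2 and Phkg2, the alpha and gamma subunits best known from liver, were higher in SMA; Phka2 is named after its values were seen. Phka2 had 28.7, 26.9, 24.5 and 23.5 CPM in SMA and 17.5, 17.9, 17.2, 20.4 and 15.5 CPM in wild type, and rose by 0.55 ± 0.092 in log2 (SE; BH-adjusted p 3.63e-04, edgeR quasi-likelihood test). Phkg2 had 16.1, 16.8, 14.8 and 14.8 CPM in SMA and 9.06, 10.2, 8.96, 8.28 and 9.92 CPM in wild type, and rose by 0.75 ± 0.089 (BH-adjusted p 2.71e-05, edgeR quasi-likelihood test). For both genes every SMA library was above every wild type library. Among counts per exon length of the alpha genes, Phka1 held 73.1% ± 3.89 in SMA (SD, n = 4) and 92.4% ± 2.89 in wild type (SD, n = 5). Among those of the gamma genes, Phkg1 held 89.9% ± 0.650 in SMA and 97.1% ± 0.566 in wild type. The muscle forms remained the larger part in all 9 libraries.

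The remaining subunits of the complex are not split into muscle and liver genes. Phkb, the beta subunit used in both tissues, had 74.5, 85.2, 86.9 and 93.3 CPM in SMA and 168, 144, 166, 165 and 289 CPM in wild type. Phkb fell by 1.13 ± 0.18 on the log2 scale (BH-adjusted p 2.52e-04, edgeR quasi-likelihood test). Calm2 and Calm3 encode calmodulin, the calcium-sensing delta subunit, which serves many other enzymes. Calm2 fell by 1.13 ± 0.082 and Calm3 by 1.43 ± 0.10 (BH-adjusted p 7.50e-07 and 5.96e-07, edgeR quasi-likelihood test). Per exon length, Phkb was 0.217 ± 0.0151 times Phkg1 in SMA and 0.204 ± 0.0283 times in wild type, overlapping between the groups. Phka1 was 0.882 ± 0.0383 times Phkb in SMA and 1.38 ± 0.252 times in wild type, without overlap. The Phka1 transcript was thus lower relative to Phkb, but the ratio leaves out Phka2, the other alpha gene, which rose. These ratios were chosen after the values were seen.

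**Figure D2:**
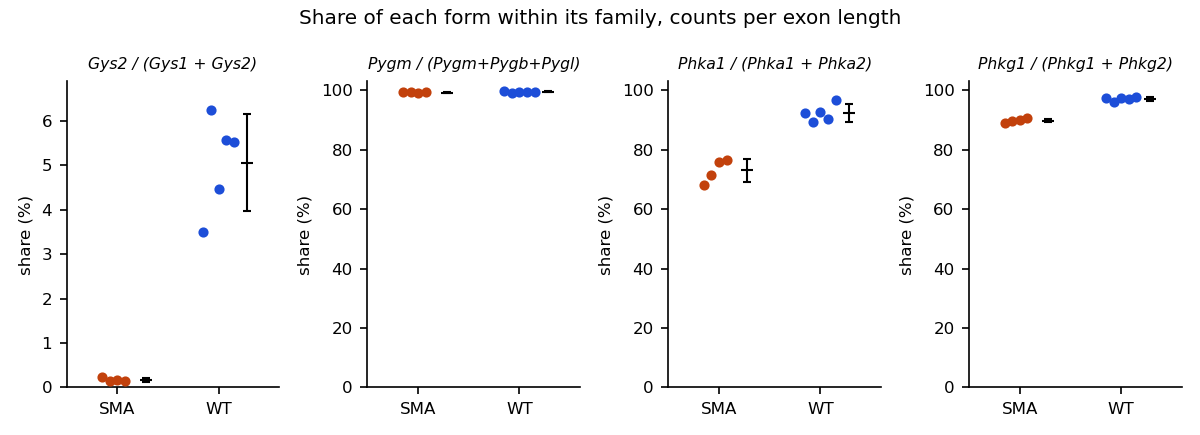
Share of Gys2, Pygm, Phka1 and Phkg1 within its gene family in percent of counts per exon length (vertical axes from 0), with 1 point per library for SMA (left) and wild type (right) and the mean and SD in black. Gys2, Phka1 and Phkg1 take a smaller share in every SMA library than in any wild type library, and the Pygm shares overlap between the groups near 99%.

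Ppp1r3c, also called protein targeting to glycogen, brings PP1 to the glycogen particle (chromosome 19, 36731731 to 36736653, minus strand). It had 81.6, 111, 95.5 and 102 CPM in SMA and 213, 236, 197, 219.7 and 394 CPM in wild type. All SMA libraries were below all wild type libraries, with wild type 5 again the highest. The log2 fold change was -1.37 ± 0.19, a 2.58-fold lower level, and -1.15 ± 0.10 without wild type 5. Per exon length Ppp1r3c was 0.344 ± 0.0527 times Gys1 in SMA (SD, n = 4) and 1.04 ± 0.272 times in wild type (SD, n = 5), with no overlap, again a ratio chosen after the values were seen.

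The other targeting subunits differed in direction. Of 6 listed, 5 passed the low-count filter, and 2 rose, 2 fell and 1 did not pass, where 54.9% of all genes tested were called. Ppp1r3f rose by 1.21 ± 0.10 and Ppp1r3d by 0.78 ± 0.14 on the log2 scale (BH-adjusted p 2.10e-06 and 6.48e-04, edgeR quasi-likelihood test). Ppp1r3b, the form best known from liver and named after its values were seen, fell by 1.79 ± 0.33 (BH-adjusted p 6.73e-04, edgeR quasi-likelihood test), with 1.10 ± 0.374 CPM in SMA (SD, n = 4) and 3.82 ± 1.69 CPM in wild type (SD, n = 5). Ppp1r3a, the main targeting subunit of skeletal muscle, likewise named after its values were seen, averaged 177 ± 27.5 CPM in SMA and 183 ± 46.5 CPM in wild type, with a log2 fold change of -0.047 ± 0.17 (BH-adjusted p 0.831, edgeR quasi-likelihood test). The 3 genes of the PP1 catalytic subunit did not pass, with Ppp1ca at 0.18 ± 0.087 (BH-adjusted p 0.101, edgeR quasi-likelihood test). Ppp1ca passed as higher without SMA 3, with a BH-adjusted p of 0.0193 by edgeR, without SMA 3 and wild type 5 together, at 0.0176, and with scaling to total counts, at 9.16e-04.

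Set in order by level per exon length, Pygm stood first in both groups, at 884 ± 92.1 CPM per kilobase in SMA (SD, n = 4) and 1394 ± 303 in wild type (SD, n = 5). In SMA it was followed by Gys1 at 105 ± 16.0, Phkg1 at 73.2 ± 3.63, Ppp1r3c at 35.8 ± 4.58, Gbe1 at 15.2 ± 0.810, Phka1 at 14.0 ± 1.47, Pygb at 4.79 ± 0.235, Pygl at 1.61 ± 0.291 and Gys2 at 0.178 ± 0.0329. Neighbours in that order did not overlap except Gbe1 and Phka1. In wild type the order after Pygm was Phkg1 at 169 ± 30.7, Ppp1r3c at 92.4 ± 29.5, Gys1 at 90.8 ± 20.0, Phka1 at 50.0 ± 26.3, Gbe1 at 13.1 ± 3.16, Gys2 at 4.75 ± 1.13, Pygb at 4.62 ± 0.713 and Pygl at 1.76 ± 0.903. There, values of Phkg1 and Ppp1r3c, of Ppp1r3c and Gys1, of Gys1 and Phka1, and of Gys2 and Pygb overlapped. Both close pairs turned round without wild type 5, an alternative chosen after seeing the data: over wild type 1 to 4 Gys1 averaged 85.4 ± 18.4 and Ppp1r3c 79.4 ± 5.99, and Pygb averaged 4.72 ± 0.782 and Gys2 4.29 ± 0.574 CPM per kilobase (SD, n = 4). Gys1 came next after Pygm in SMA, whereas in wild type Phkg1 ranked above Gys1, with or without wild type 5. Gys2 came last in SMA but beside Pygb in wild type. Exon lengths are those of GENCODE M21, which may differ from the counting annotation, so the levels per length are approximate.

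Beyond the 9 genes, 38 of 39 further genes of glycogen handling were tested, in a list made with other results of these data known. Of these, 14 fell, 7 rose and 17 did not pass, so 55.3% were called against 54.9% of all genes, a share near the background. Their median log2 fold change was -0.098. With scaling to total counts 11 fell and 17 rose.

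**Figure D3:**
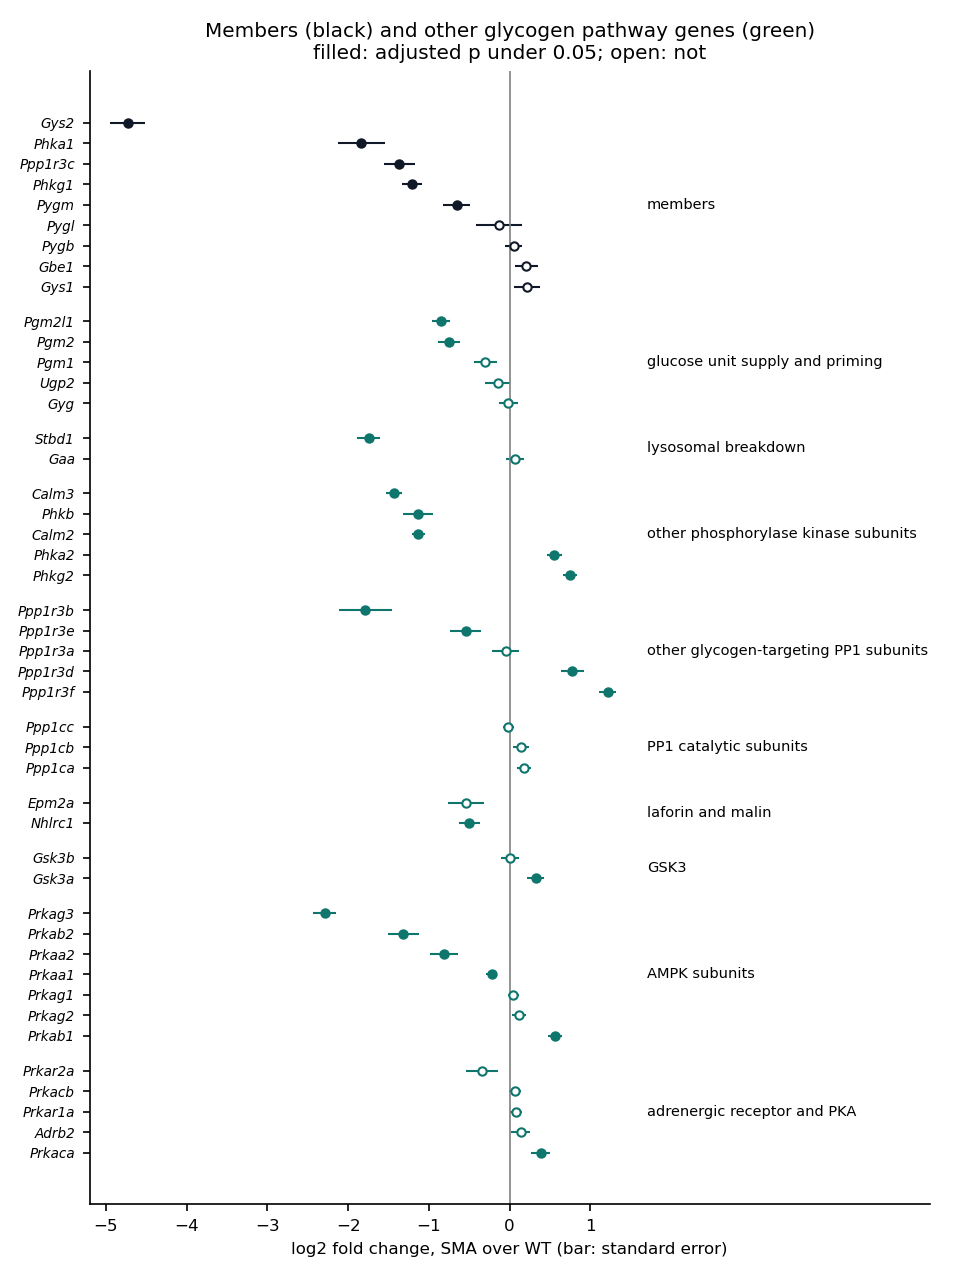
Log2 fold change of SMA over wild type (horizontal axis, bars are standard errors) for the 9 glycogen genes in black and further pathway genes in green, by role from top to bottom. Filled points passed the BH threshold of 0.05 in edgeR and open points did not; Gys2 lies farthest to the left at -4.73, and Phka2 and Phkg2 lie to the right of 0 while Phkb, Calm2 and Calm3 lie to the left.

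Of 5 genes tested that supply glucose units or prime the particle, 2 fell and 3 did not pass, where 54.9% of all genes were called. The gene listed as Pgm2, a phosphoglucomutase, which interconverts glucose 1-phosphate and glucose 6-phosphate, averaged 577 ± 43.1 CPM in SMA (SD, n = 4) and 973 ± 178 CPM in wild type (SD, n = 5). It fell by 0.75 ± 0.13 on the log2 scale (BH-adjusted p 5.32e-04, edgeR quasi-likelihood test). The symbols Pgm1 and Pgm2 have been exchanged between mouse annotations, so the locus is not stated. Pgm2l1, a relative that makes glucose 1,6-bisphosphate, fell by 0.85 ± 0.11 (BH-adjusted p 6.07e-05, edgeR quasi-likelihood test). Gyg, the primer protein glycogenin, had a log2 fold change of -0.017 ± 0.12, and Ugp2, which makes UDP-glucose, of -0.15 ± 0.15, both named after their values were seen.

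Stbd1, a glycogen-binding protein thought to link glycogen to lysosomal degradation, had 63.0, 56.7, 45.7 and 80.8 CPM in SMA and 208, 194, 206, 205 and 219.98 CPM in wild type. It fell by 1.75 ± 0.14 (BH-adjusted p 1.38e-06, edgeR quasi-likelihood test). The lysosomal glucosidase gene Gaa, named after its values were seen, had a log2 fold change of 0.069 ± 0.11 and did not pass. Nhlrc1, which encodes the ubiquitin ligase malin, fell by 0.50 ± 0.13 (BH-adjusted p 0.00635, edgeR quasi-likelihood test), but did not pass with scaling to total counts, at 0.186.

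The AMP-activated protein kinase AMPK is a trimer that can bind glycogen through its beta subunit and phosphorylates glycogen synthase. Of its 7 subunit genes, 4 fell, 1 rose and 2 did not pass, beside 27.2% of all genes tested called lower and 27.7% called higher. Prkag3, the gamma subunit enriched in glycolytic muscle, had 50.6, 52.9, 53.2 and 41.7 CPM in SMA and 246, 189.6, 254, 212 and 312 CPM in wild type, and fell by 2.29 ± 0.15 (BH-adjusted p 3.02e-07, edgeR quasi-likelihood test). Prkab2, the beta subunit prominent in muscle, fell by 1.32 ± 0.19 (BH-adjusted p 1.22e-04, edgeR quasi-likelihood test). Prkab1, the other beta subunit gene, named after its values were seen, rose by 0.56 ± 0.086 (BH-adjusted p 1.92e-04, edgeR quasi-likelihood test). The beta genes thus moved in opposite directions. Gsk3a, a kinase that inhibits glycogen synthase, rose by 0.32 ± 0.10 (BH-adjusted p 0.0187, edgeR quasi-likelihood test), but did not pass without SMA 1, at 0.0686, nor with sex as a covariate, at 0.0802. Gsk3a overlapped between the groups. Its relative Gsk3b, named after its values were seen, did not pass, with a log2 fold change of 0.0058 ± 0.11. Prkaca, the catalytic subunit of protein kinase A, rose by 0.38 ± 0.12 (BH-adjusted p 0.0140, edgeR quasi-likelihood test), but did not pass with sex as a covariate, at 0.0793. Prkaca overlapped between the groups. It was the 1 gene called of 5 for the adrenergic receptor and protein kinase A, where 54.9% of all genes tested were called.

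Markers of other cell types are set beside the results. Among all genes tested 27.2% were called lower and 27.7% higher. Gys2 is also made in fat. Of 7 white adipocyte markers 2 were lower, Lep and Plin1, 1 was higher and 4 did not pass. Their summed level was 530 to 663 CPM in SMA and 301 to 628 CPM in wild type, most of it from Fabp4, which vessels express too. Fabp4 was the marker called higher, with a log2 fold change of 0.56 ± 0.17 (SE), and overlapped between the groups. Plin1, called lower with a log2 fold change of -1.68 ± 0.66 (SE), overlapped too. Adipoq, the adipocyte hormone adiponectin, had 3.12, 3.41, 1.06 and 5.17 CPM in SMA and 2.29, 6.45, 3.47, 2.94 and 13.3 CPM in wild type, overlapping between the groups. Lep, the adipocyte hormone leptin, had 1, 2, 0 and 0 counts in SMA and 15, 35, 27, 9 and 136 counts in wild type. Ucp1, the uncoupling protein of brown fat, had 0.315, 0.320, 1.93 and 1.04 CPM in SMA and 16.9, 40.8, 28.4, 11.3 and 119 CPM in wild type. Of 3 brown adipocyte markers tested 1 was lower, Ucp1, and 1 was higher, Elovl3. Elovl3 had 2.95, 3.38, 3.35 and 2.78 CPM in SMA and 0.835, 1.03, 1.07, 1.85 and 0.815 CPM in wild type. Cidea, with a log2 fold change of -0.225 ± 0.359 (SE), overlapped between the groups and did not pass. The 4 listed summed to 14.2 to 20.2 CPM in SMA and 21.2 to 155 CPM in wild type, where Ucp1 made up most of the sum in each library. In wild type 5, the library with the most Adipoq, Lep and Ucp1, Gys2 was also highest, as were 8 of the 9 glycogen genes among wild type libraries. SMA 4 had more Adipoq than wild type 1, 3 and 4, and the lowest Gys2, at 0.365 CPM. No adipocyte marker was at 0 in all libraries, and their part in the Gys2 difference was not tested.

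**Figure D4:**
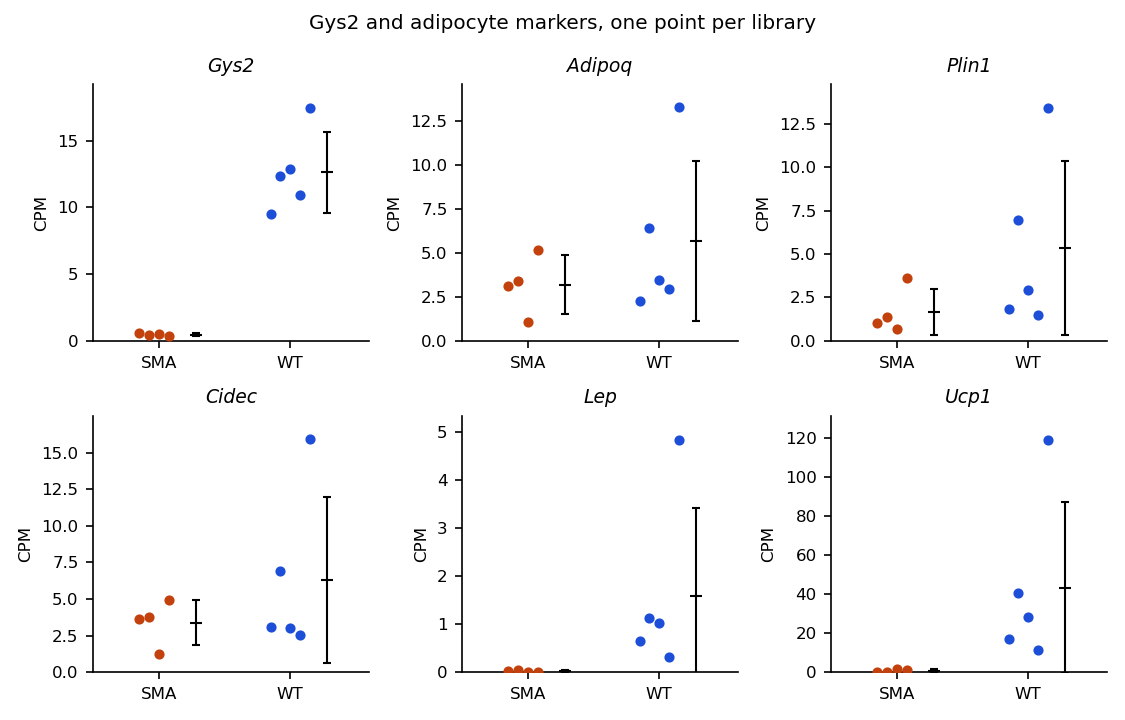
Level in CPM (vertical axes from 0) of Gys2 and of the adipocyte markers Adipoq, Plin1, Cidec, Lep and Ucp1, with 1 point per library for SMA (left, n = 4) and wild type (right, n = 5) and the mean and SD in black (SD bars are clipped at 0). Gys2, Lep and Ucp1 do not overlap between the groups, whereas Adipoq, Plin1 and Cidec do, and wild type 5 is the highest wild type library in all 6 panels. Fabp4 and Elovl3, the adipocyte markers called higher in SMA, are not shown.

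Hepatocyte markers were low in all libraries apart from Apoa1 in SMA 4. Apoa1 had 7, 2, 2 and 177 counts in SMA and 0 to 1 counts in wild type, and Alb had 6 to 21 counts in SMA and 0 to 4 counts in wild type, and the 6 hepatocyte markers summed to 0.399 to 6.20 CPM in SMA and 0.308 to 0.559 CPM in wild type. Of 6 fast-fibre markers 5 were lower and 0 higher, and they summed to 31900 to 38500 CPM in SMA and 79000 to 112000 CPM in wild type. Slow-fibre markers summed to 1250 to 1780 CPM in SMA and 738 to 2290 CPM in wild type, with 1 of 6 higher and 0 lower. Schwann cell markers, with 4 of 5 higher, summed to 725 to 1700 CPM in SMA and 274 to 654 CPM in wild type. Macrophage and neutrophil markers, with 4 of 8 lower, summed to 52.2 to 63.8 CPM in SMA and 59.8 to 85.7 CPM in wild type. Fibroblast markers, with 3 of 4 lower and 1 higher, summed to 1720 to 2580 CPM in SMA and 2940 to 5270 CPM in wild type. Endothelial markers, with 2 of 4 lower, summed to 448 to 521 CPM in SMA and 460 to 589 CPM in wild type. Red blood cell markers, with 3 of 3 lower, summed to 603 to 958 CPM in SMA and 1220 to 2040 CPM in wild type. The part of these lists in the differences of glycogen genes was not tested.

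The genes whose profile over the 9 libraries came closest to that of Gys2 were found by the root mean square difference of log2 CPM, each gene set to its own wild type mean, among 11099 genes with at least 5 CPM in a group. They were Pvalb, a calcium buffer of fast fibres, at 0.38, then Exoc3l4 at 0.45, Neu2, a sialidase, at 0.51, Actc1, a sarcomeric actin, at 0.52, and C130080G10Rik at 0.56. Exoc3l4 had 2.17 ± 0.496 CPM in SMA (SD, n = 4) and 38.9 ± 10.5 CPM in wild type (SD, n = 5). The measure rewards a difference of similar size, so it names genes with a fall near that of Gys2, and says nothing on shared control. Their log2 fold changes ran from -5.43 for Neu2 to -3.98 for Actc1, against -4.73 for Gys2.

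Of the 9 genes, 2 share exon bases with a gene of another name. The exons of Gys1 share 310 bases with Ruvbl2 on the opposite strand, and those of Phkg1 share 630 bases with Sumf2 on the opposite strand, in GENCODE M21. Whether the counting used strand is not given in the sources used here. Ruvbl2 had 32.1 ± 2.65 CPM in SMA and 32.0 ± 3.06 CPM in wild type, and Sumf2 had 12.2 ± 0.769 CPM in SMA and 16.4 ± 1.30 CPM in wild type (SD, n = 4 and n = 5), both small beside Gys1 and Phkg1. Sumf2 fell by 0.425 ± 0.087 on the log2 scale (SE; BH-adjusted p 0.00144, edgeR quasi-likelihood test), and Ruvbl2 did not pass. These levels do not show whether reads in the shared bases were left out of the counts of Gys1 and Phkg1.

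The upstream sequence of the members was searched for motifs in RefSeq promoters (GRCm38.p6), from 250 to 51 bases before the start, for the 8 of 9 genes matched; Gys2 had no entry. The myogenic E-box CAGCTG, its own reverse complement and a letter string that muscle transcription factors can bind, was found in 3 of the 8, Gys1, Pygm and Ppp1r3c, and in 10.3% of 32851 promoters of the same length. These 3 windows are printed because they hold the string, which the capitals mark; Pygm and Ppp1r3c were lower in SMA and Gys1 did not pass.
Gys1 (chr7:45434589-45434788, plus strand): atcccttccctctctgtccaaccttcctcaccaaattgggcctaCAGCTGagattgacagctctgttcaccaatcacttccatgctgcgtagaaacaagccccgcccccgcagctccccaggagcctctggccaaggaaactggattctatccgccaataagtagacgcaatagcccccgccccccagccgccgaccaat
Pygm (chr19:6384158-6384357, plus strand): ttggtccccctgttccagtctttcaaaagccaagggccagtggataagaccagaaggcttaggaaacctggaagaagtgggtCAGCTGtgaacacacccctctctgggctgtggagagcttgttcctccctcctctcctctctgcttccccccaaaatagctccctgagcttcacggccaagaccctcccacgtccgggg
Ppp1r3c (chr19:36736655-36736854, minus strand): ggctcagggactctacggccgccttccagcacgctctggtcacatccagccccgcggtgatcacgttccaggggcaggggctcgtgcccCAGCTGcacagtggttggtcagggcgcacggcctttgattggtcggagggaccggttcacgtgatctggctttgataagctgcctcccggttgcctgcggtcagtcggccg
The string began 206, 168 and 161 bases before the start of Gys1, Pygm and Ppp1r3c. The clock E-box CACGTG, likewise its own reverse complement, was found in Ppp1r3c alone and in 4.34% of promoters, the nuclear receptor half-site AGGTCA, on either strand, in Pygl alone and in 11.4%, and the forkhead site GTAAACA, on either strand, in none of the 8 and in 2.58%. No matches in these promoters overlapped. A match is a string of letters in this window and not a shown binding site.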

How the data were processed

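RNA of hindlimb muscle was sequenced as stranded mRNA libraries, 4 of SMA and 5 of wild type mice. Per the submitters' processing notes, HTSeq 0.9.1, DESeq2 1.16.1 and the build mm10 were used, with no role stated. The aligner, annotation and strand setting were not stated in any source used. The authors deposited raw counts per gene and a signal, normalised counts whose size factors (0.734 to 1.23) equalled median-of-ratios factors computed from the counts. No pair of libraries of a group agreed within sampling noise.

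The counts went into edgeR 4.0.16 under R 4.3.3 (filterByExpr, TMM scaling, quasi-likelihood test, group as the 1 term), calling genes at 0.05 after adjusting p by Benjamini-Hochberg across the 15873 that passed the filter. The SE of a log2 fold change is its size divided by the root of the F statistic. Depth ran from 24917665 to 35087722 counts. DESeq2 1.42.0 and limma 3.58.1 were alternatives, and the procedure was tested on simulated data. Few genes were changed in that simulation, whereas 54.9% were called here, so it does not check the scaling for these data. Members and lists were chosen with earlier results of these data known. Named pathway genes were the 12 called genes with the lowest adjusted p and at least a 1.5-fold change, plus 1 per subgroup without such a gene; others are marked in the text, and some listed genes enter the counts but are not reported here. Of the listed red blood cell markers, 3 of 5 were in the table.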

Additional observations from a re-analysis of the deposited data

Results flagged for a closer look

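Values were flagged where 1 library lay far from the others of its group by Dixon's test, which chance does in about 1 of 20 independent groups. Of 62 groups of values, 7 were flagged. These groups are not independent, since wild type 5 recurs and shares of 1 family depend on each other, so nothing is read from the count. Wild type 5 was high for Phka1, at 591 CPM, for Ppp1r3c, at 394 CPM, for Phkb, at 289 CPM, and for Pygl, at 11.1 CPM. Wild type 2 was high for Pygb, at 23.0 CPM. Within the phosphorylase counts SMA 3 had a low share of Pygm, at 98.9%, and a high share of Pygb, at 0.920%.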

How the results depend on the processing

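The count of 5 glycogen genes called lower held, for the same 5 genes, in every alternative run (other scaling, filters, tools, covariates and left-out libraries). The count called higher, 0, became 2 with scaling to total counts (Gys1 and Gbe1), and 1 (Gbe1) with the replicate number as a block and without wild type 5 and SMA 3 together; leaving out each library in turn gave 0 to 1, with 1 only without wild type 5. Of the further pathway genes, 17 were called higher with scaling to total counts, against 7, while the count called lower ran from 11 to 16 over all alternatives. Pygl, not called in any alternative, had a log2 fold change of -0.13, which was 0.23 with the block or without wild type 5, 0.13 with total counts and 0.35 without wild type 5 and SMA 3, where Pygb, also not called, was -0.020 against 0.048. The replicate numbers are not known to pair animals: deviations of same-numbered libraries correlated over genes at -0.0482 to 0.118, so they were not treated as pairs. With the replicate number as a block 5 glycogen genes were lower, and 12 and 6 further genes lower and higher; Prkaca was not called (edgeR, adjusted p 0.0596). With sex as a covariate these were 12 and 5. Per exon length the Gys2 share differed by -4.89 percentage points and the Phkg1 share by -7.25, against -3.59 and -5.94 in raw counts, which follows from the exon lengths used. Depth limits the SMA level of Gys2, at 13 to 20 counts per library.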
